A study of Mus musculus with 6 samples.

Results

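The genes described here encode signals of the TGF-beta superfamily that act in fat: the receptor gene Acvr1c, the activin subunit genes Inhba and Inhbb, the activin-binding protein genes Fst and Fstl3, the bone morphogenetic protein genes Bmp2, Bmp4 and Bmp3, and the TGF-beta genes Tgfb1 and Tgfb2. They were chosen by name, and a probe set (a group of short array probes for 1 RNA) counted for a gene when the platform annotation pairs it with that gene alone. In this way 9 of the 10 genes had 18 of the 45101 probe sets on the array, out of 18194 genes named in all. No probe set is named for Bmp3 in that annotation (0), so Bmp3 was not analysed here. Of the 18 probe sets 15 passed the filter on dim signals, and these cover all 9 genes.

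Epididymal white fat was taken from male mice aged 10 weeks, and the RNA of each mouse went to its own Affymetrix mouse array. The transgenic group (3 mice) carries nuclear SREBP-1c, a factor that switches on genes of fatty acid synthesis, under the aP2 (Fabp4) promoter on a C57BL6;SJL background, and the labels call such mice lipodystrophic. The wild type group (3 mice) has the same background without the transgene, and the series text calls it litter-matched. The aP2 promoter is active in fat cells and also in some macrophages, so the transgene need not be limited to fat cells. The strain field spells the transgene differently for each transgenic mouse (aP2-nSrebp1c, aP2-nSrebp1, aP2-SREBP1c), while the titles name aP2-nSREBP1c for all. No source used here states the number of founder lines.

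Ligands of this superfamily bind pairs of type I and type II receptors on the cell surface, and the receptors then phosphorylate Smad proteins, which move to the nucleus and change transcription. Activins are dimers of inhibin beta subunits, and follistatin (Fst) and follistatin-like 3 (Fstl3) bind them outside the cell and block them. Acvr1c encodes ALK7, a type I receptor for activin B and related ligands that is abundant in fat cells and is known to restrain lipolysis. BMP2 and BMP4 can commit stromal progenitors to the fat cell lineage, and TGF-beta 1 is known to inhibit the formation of fat cells.

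The values are MAS5 signals, linear intensities per probe set and array, and 3 arrays per group limit the precision of each. The array of transgenic replicate 2 stood apart: its 3′ over 5′ signal ratio was 122 for beta-actin and 55.9 for Gapdh, against 1.11 to 1.81 and 0.772 to 1.22 on the other 5 arrays. Its median signal was 37.7, against 53.4 to 65.4. Such ratios rise when RNA is degraded or incompletely copied, so each tested member probe set is given with and without that array. By the ratio of a further control, Pcx, transgenic replicate 2 did not stand apart (14.1). That ratio was 40.6, 52 and 3.06 on wild type replicates 1, 2 and 3, and 3.1 and 44.2 on transgenic replicates 1 and 3. Srebf1, the gene of the transgene's factor, was higher in transgenic fat (log2 difference 1.08, limma adjusted p = 0.0342, and 0.98 with adjusted p = 0.00356 without transgenic replicate 2), but no source used here says whether that probe set detects transgene RNA. Marker genes of fat cells were present on all arrays (5 of 7 are named in the annotation and none (0) lay below the offset of 16 on all arrays). Their summed signal was 40845 to 44852 in wild type and 15314 to 23402 in transgenic fat. Transgenic replicate 2 gave the lowest sum, and transgenic replicates 1 and 3 had 18993 and 23402. By adjusted p 2 of the 5 fell (Adipoq and Lep), where 1.54% of all tested genes fell. Retn stayed at 74.3% of wild type and did not pass (limma adjusted p = 0.189). The median log2 difference over all tested probe sets was −0.09, and 0.13 when array medians were set equal. In whole tissue, fewer cells of a type and less RNA per cell cannot be told apart.

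By probe set 2 of the 15 tested fell, 0 rose and 13 did not pass, where 1.3% of the 27023 tested probe sets fell and 1.67% rose. The groups did not overlap for 7 of the 15, all lower, against 15.3% lower and 11.9% higher of all. Without transgenic replicate 2, 5 of 15 fell and 0 rose, against 6.23% and 6.96%. That array gave the lowest of the 6 values on 8 of the 15 probe sets and the highest on 2. Counted by gene, on the tested probe set with the highest mean signal, 1 of 9 members fell, 0 rose and 8 did not pass, where 1.54% of all 13112 tested genes fell and 2.23% rose. At an unadjusted limma p under 0.05 the members were 3 lower (Acvr1c, Bmp2 and Bmp4) and 0 higher, where 8.95% of all genes were lower and 9.44% higher. The groups did not overlap for 5 of 9 members, all lower, where 16.3% of all genes were lower without overlap and 14.1% higher. The members that fell without transgenic replicate 2 were 3 of 9, against 7.33% of all genes. The median log2 difference of the members was −0.85, and −0.37 without that array, against −0.04 and 0.02 over all tested genes. The members were picked with earlier results of these data known, so these counts describe the list and support nothing beyond it.

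**Figure D1:**
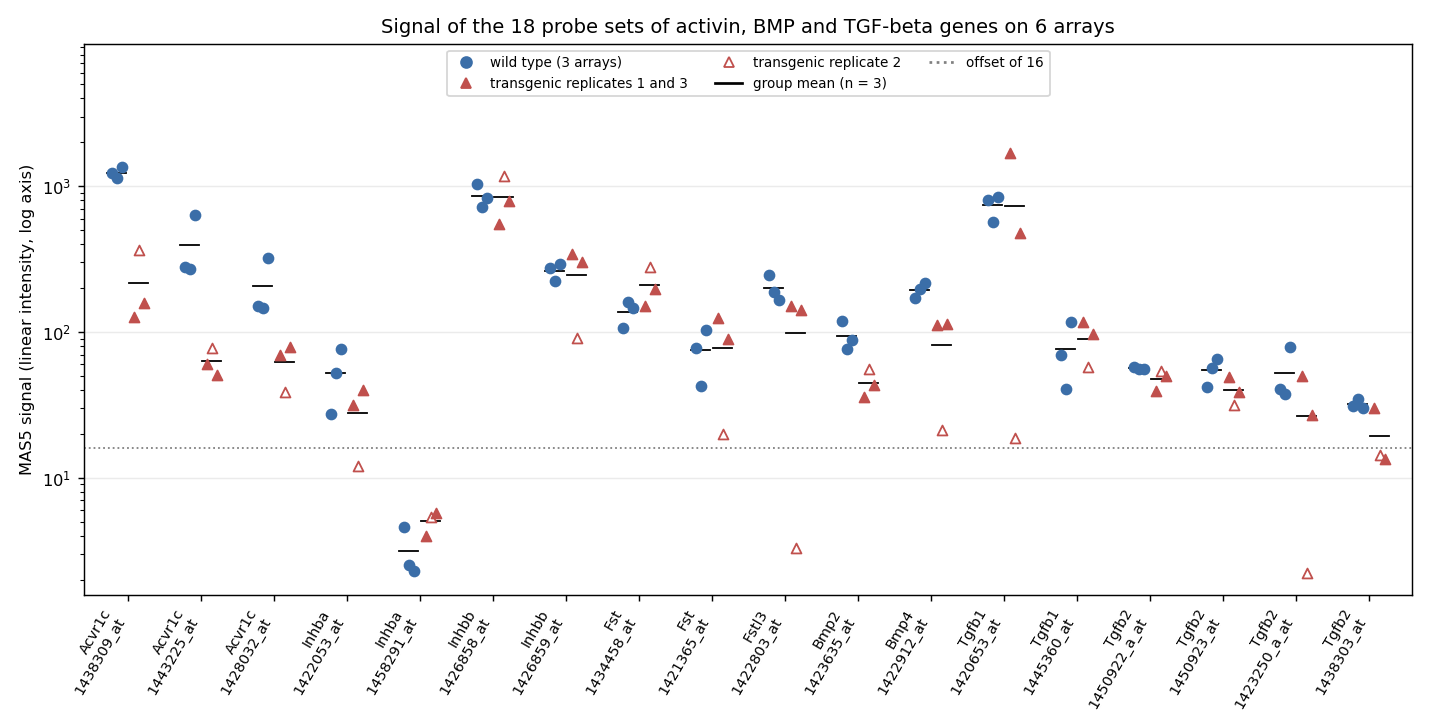
MAS5 signal (log axis) of each of the 18 probe sets on the 6 arrays: circles are wild type mice, filled triangles transgenic replicates 1 and 3, open triangles transgenic replicate 2, bars the group means (n = 3) and the dotted line the offset of 16. All 3 probe sets of Acvr1c lie lower in every transgenic mouse, and transgenic replicate 2 lies far below the other arrays for Fstl3, Bmp4 and Tgfb1 1420653_at.

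The ALK7 receptor gene was the member that fell, and it fell strongly. Acvr1c had 3 probe sets, each lower in all 3 transgenic mice than in any wild type mouse, and 2 of them passed the test. On 1438309_at the signal was 1227, 1139 and 1348 in wild type replicates 1, 2 and 3, and 126, 367 and 157 in transgenic replicates 1, 2 and 3. The highest transgenic value, in replicate 2, stayed far below the lowest wild type value. The mean went from 1238 ± 105 to 217 ± 131 (SD, n = 3), or 17.5% of wild type. The log2 difference, transgenic minus wild type on the log2(signal + 16) scale that is used for every difference here, was −2.57 ± 0.40 (SE, limma adjusted p = 0.0232). Probe set 1443225_at read 281, 268 and 634 in wild type and 60.1, 78.1 and 51.0 in transgenic fat. Its mean was 16% of wild type, with a log2 difference of −2.28 ± 0.37 (SE, limma adjusted p = 0.028). Probe set 1428032_at read 150, 146 and 323 in wild type and 69.2, 38.5 and 78.7 in transgenic fat, and did not pass (−1.46 ± 0.38 SE, limma adjusted p = 0.112). Wild type replicate 3 was the brightest wild type array on all 3 probe sets, most clearly on 1443225_at and 1428032_at. It also had a lower Pcx ratio (3.06) than wild type replicates 1 and 2 (40.6 and 52), and the part of this was not tested.

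Leaving out transgenic replicate 2 brought all 3 probe sets of Acvr1c past the threshold. The log2 differences were then −3.0, −2.41 and −1.22, with limma adjusted p of 1.51e-05, 0.00166 and 0.0365. The call on 1438309_at was lost without wild type replicate 1, 2 or 3 or transgenic replicate 1 or 3 (−2.62 to −2.28, adjusted p = 0.0548 to 0.133). The call on 1443225_at was lost without the same arrays (−2.49 to −1.89, adjusted p = 0.0696 to 0.108). With array medians set equal both calls were lost (−2.34 and −2.05, adjusted p = 0.0763 and 0.0568), and with quantile normalization that of 1443225_at (−2.11, adjusted p = 0.0565). Among the 13112 tested genes Acvr1c had rank 73 by size of fall. The summed fat cell marker signal, given above, moved in the same direction, and its part in the fall was not tested.

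The genes whose pattern over the 6 arrays was most like that of Acvr1c 1438309_at, of 13111 compared, were Fermt2 (Pearson r = 0.999), Gnai1 (r = 0.998) and Ptpn14 (r = 0.996). They encode an integrin activator (kindlin-2), an inhibitory G protein alpha subunit and a tyrosine phosphatase. Their log2 differences were −1.06 (adjusted p = 0.0658), −1.14 (adjusted p = 0.0473) and −0.95 (adjusted p = 0.0986), smaller than that of Acvr1c. These correlations are a description over 6 arrays that share the 2 groups and the array of transgenic replicate 2.

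The sequence before the start of Acvr1c is shown with that of Bmp4 and Bmp6, since SREBP-1c is a factor that binds promoter DNA. Acvr1c and Bmp6 passed the test as lower with all arrays, and Bmp4 did not. The windows of Bmp4 and Bmp6 both hold the first motif searched, and that of Acvr1c does not. RefSeq sequences (GRCm38.p6) were found for 7 of the 10 members, as 8 windows of 250 bases before a transcript start. Bmp2, Bmp3 and Fst had none. Searched on both strands were 4 motifs. The first was the E-box CACGTG. A wider form of that motif, with any letters in its middle, was searched as CANNTG, so the matches of the first are among its own. From the sterol regulatory element that binds SREBP proteins came CACCCCA. The last motif was the box that Smad proteins bind, read as CAGAC. Capitals mark matches to any of these but the wider form. Acvr1c has 2 annotated starts. The first lies at chr2:58357759-58358008 on the minus strand, Bmp4 at chr14:46390670-46390919 on the minus strand and Bmp6 at chr13:38345466-38345715 on the plus strand.
Acvr1c: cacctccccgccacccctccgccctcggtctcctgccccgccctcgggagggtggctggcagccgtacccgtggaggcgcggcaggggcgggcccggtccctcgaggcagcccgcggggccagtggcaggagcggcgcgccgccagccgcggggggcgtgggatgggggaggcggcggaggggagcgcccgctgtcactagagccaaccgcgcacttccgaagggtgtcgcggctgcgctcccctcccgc
Bmp4: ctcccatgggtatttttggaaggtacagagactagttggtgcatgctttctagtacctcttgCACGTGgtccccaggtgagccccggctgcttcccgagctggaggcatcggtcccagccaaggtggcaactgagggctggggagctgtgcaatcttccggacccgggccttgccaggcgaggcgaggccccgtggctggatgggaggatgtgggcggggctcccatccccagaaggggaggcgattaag
Bmp6: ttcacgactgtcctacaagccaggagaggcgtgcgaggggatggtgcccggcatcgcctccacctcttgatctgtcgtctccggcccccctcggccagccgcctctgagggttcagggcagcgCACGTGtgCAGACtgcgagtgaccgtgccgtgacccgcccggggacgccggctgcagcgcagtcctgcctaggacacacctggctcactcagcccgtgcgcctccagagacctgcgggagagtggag

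The Acvr1c window shown held none of the 4 motifs (0), and the window of its second start held 1 match to CANNTG, a motif found in 4 of the 8 member windows and in 66.2% of all. CACGTG was found in 2 of the 8 member windows (Bmp4 and Tgfb2), and in 6.02% of 32841 such windows of all genes. Bmp4 holds it once, beginning 188 bases before the start. Bmp6 holds it once as well, 127 bases before the start, followed by a CAGAC at 119 bases. Of the 7 other pathway genes that passed, 3 had a window (Amhr2, Bmp6 and Bmper), and CACGTG was in 1 of the 3. The sterol element motif CACCCCA was in 0 of the 8 member windows and in 6.68% of all windows, and CAGAC was in 2 of 8 (Fstl3 and Tgfb2) and in 42.2% of all. These matches describe letters only, and a window without a match says nothing about binding of the factor.

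The activin subunits did not pass the test. Inhbb, the beta B subunit that makes activin B, read 1031, 723 and 831 in wild type and 546, 1174 and 792 in transgenic fat on 1426858_at. The groups overlapped, with transgenic replicate 2 the highest of the 6 arrays, and the log2 difference was −0.09 ± 0.33 (SE, limma adjusted p = 0.905), and 0.13 with array medians set equal. The 95% interval of the first value ran from −0.88 to 0.69. On its second probe set, 1426859_at, the same array was the lowest: 275, 224 and 291 in wild type against 344, 90.4 and 302. There the log2 difference was −0.27 (interval −1.42 to 0.87, limma adjusted p = 0.8). The Inhbb probe sets therefore moved in opposite ways on transgenic replicate 2, and without it they had differences of −0.37 and 0.28 (adjusted p = 0.351 and 0.418).

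Genes most like Inhbb 1426858_at were Tsga10 (Pearson r = 0.997), Rhoa (r = 0.996) and Zfand3 (r = 0.995), whose log2 differences were −0.05, −0.05 and −0.06. Rhoa encodes a small GTPase of the cytoskeleton. None of the 3 passed the test (limma adjusted p = 0.937, 0.921 and 0.945), and what their patterns share is a high value on transgenic replicate 2 and a low value on transgenic replicate 1.

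Inhba, the beta A subunit of activin A, was dim in both groups. Probe set 1422053_at read 27.5, 51.9 and 76.7 in wild type and 31.4, 12.1 and 39.7 in transgenic fat, with overlapping groups and a log2 difference of −0.63 ± 0.38 (SE, limma adjusted p = 0.468; interval −1.53 to 0.28). With transgenic replicate 2 left out the difference was −0.34 (limma adjusted p = 0.595). Its other probe set, 1458291_at, read 2.3 to 5.7 over all arrays and was below the filter.

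Neither follistatin gene passed the test. Fst on 1434458_at read 107, 160 and 146 in wild type and 152, 279 and 196 in transgenic fat. Transgenic replicate 1 fell within the wild type range, and the log2 difference was 0.53 ± 0.30 (SE, limma adjusted p = 0.436; interval −0.18 to 1.23). It became 0.31 (limma adjusted p = 0.454) without transgenic replicate 2. Probe set 1421365_at read 77.2, 42.8 and 104 against 124, 19.8 and 89.1, with a difference of −0.11 (limma adjusted p = 0.936) that became 0.12 with array medians set equal and 0.48 (adjusted p = 0.388) without transgenic replicate 2.

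Fstl3, a secreted relative of follistatin, read 246, 189 and 167 in wild type and 151, 3.3 and 141 in transgenic fat on 1422803_at. The groups did not overlap, and transgenic replicate 2 lay far below the other 5 arrays. The log2 difference was −1.43 ± 0.81 (SE, limma adjusted p = 0.441), and became −0.40 ± 0.22 (SE, limma adjusted p = 0.284) when that array was left out.

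Both measured bone morphogenetic proteins of the list were lower in every transgenic mouse, though neither passed with all arrays. Bmp2 on 1423635_at read 120, 75.9 and 88.0 in wild type and 35.5, 56.1 and 43.1 in transgenic fat, a mean of 94.5 ± 22.6 against 44.9 ± 10.4 (SD, n = 3). The log2 difference was −0.85 ± 0.25 (SE, limma adjusted p = 0.154; interval −1.45 to −0.26 before any adjustment for the number of probe sets). Bmp4 on 1422912_at read 170, 197 and 216 in wild type and 111, 21.1 and 114 in transgenic fat. Transgenic replicate 2 lay far below the other transgenic arrays, and the log2 difference was −1.30 ± 0.50 (SE, limma adjusted p = 0.264).

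Both BMP genes passed the test without transgenic replicate 2. Bmp2 then had −0.98 ± 0.25 (SE, limma adjusted p = 0.0334) and Bmp4 −0.71 ± 0.20 (SE, limma adjusted p = 0.0466). The direction did not rest on that array, but the call did.

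The TGF-beta genes did not pass the test. Tgfb1 on 1420653_at read 806, 565 and 847 in wild type and 1697, 18.6 and 475 in transgenic fat. Transgenic mice thus gave both the highest and the lowest values, and the log2 difference was −1.28 ± 1.29 (SE, limma adjusted p = 0.648; interval −4.34 to 1.79). It was 0.30 (limma adjusted p = 0.724) without that array. On 1445360_at the signals were 69.5, 40.8 and 118 against 116, 57.4 and 96.3, with a difference of 0.25 ± 0.38 (SE, limma adjusted p = 0.768), and 0.49 (limma adjusted p = 0.408) without transgenic replicate 2.

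Tgfb2 was dim on its 4 probe sets, of which 2 passed the filter. On 1450922_a_at the signals were 57.7, 55.6 and 56.1 in wild type and 39.6, 53.8 and 50.2 in transgenic fat. The groups did not overlap by a small margin, and the log2 difference was −0.19 ± 0.20 (SE, limma adjusted p = 0.669), or 0.04 with array medians set equal. On 1450923_at it was −0.34 ± 0.24 (SE, limma adjusted p = 0.523). Leaving out transgenic replicate 2 gave −0.26 and −0.23 (limma adjusted p = 0.562 and 0.644). The untested probe sets read 2.2 to 79.0 (1423250_a_at) and 13.5 to 34.4 (1438303_at).

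**Figure D2:**
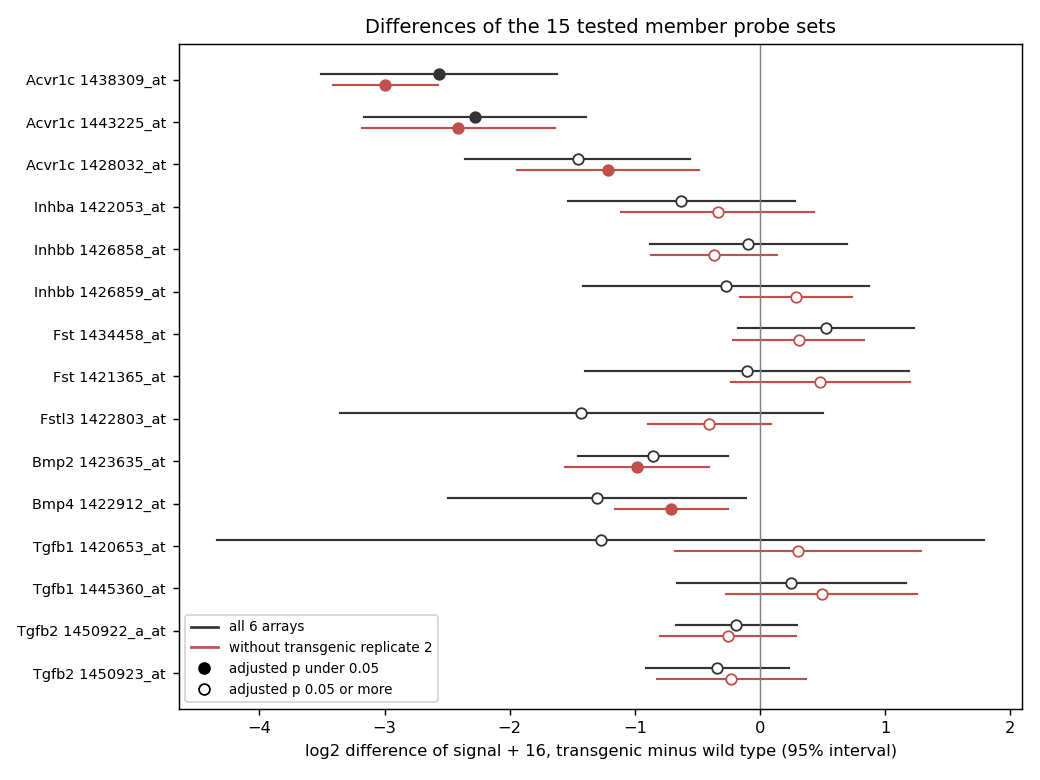
Log2 difference, transgenic minus wild type, of the 15 tested member probe sets with 95% intervals, for all 6 arrays (dark) and without transgenic replicate 2 (red); filled points have an adjusted p under 0.05. With all arrays only the Acvr1c probe sets 1438309_at and 1443225_at are filled; without that array the third Acvr1c probe set, Bmp2 and Bmp4 are filled too, and the wide interval of Tgfb1 1420653_at narrows.

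The rest of the pathway around these members was counted in the same way. Of 99 further listed ligands, receptors, Smads, antagonists, activators and responsive genes, 75 were tested. Of the 75, 2 rose, 5 fell and 68 did not pass, against 2.23% and 1.54% of all genes. The groups did not overlap for 13 that were higher and 24 that were lower, where 14.1% and 16.3% of all genes did so. At an unadjusted limma p under 0.05 there were 10 higher and 17 lower, against 9.44% and 8.95% of all genes. When transgenic replicate 2 was left out, 8 rose, 17 fell and 50 did not pass, where 8.04% of all genes rose and 7.33% fell. These shares of all genes also stand beside the counts of each list below. The median log2 difference of the 75 was −0.17 (−0.24 without that array).

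**Figure D3:**
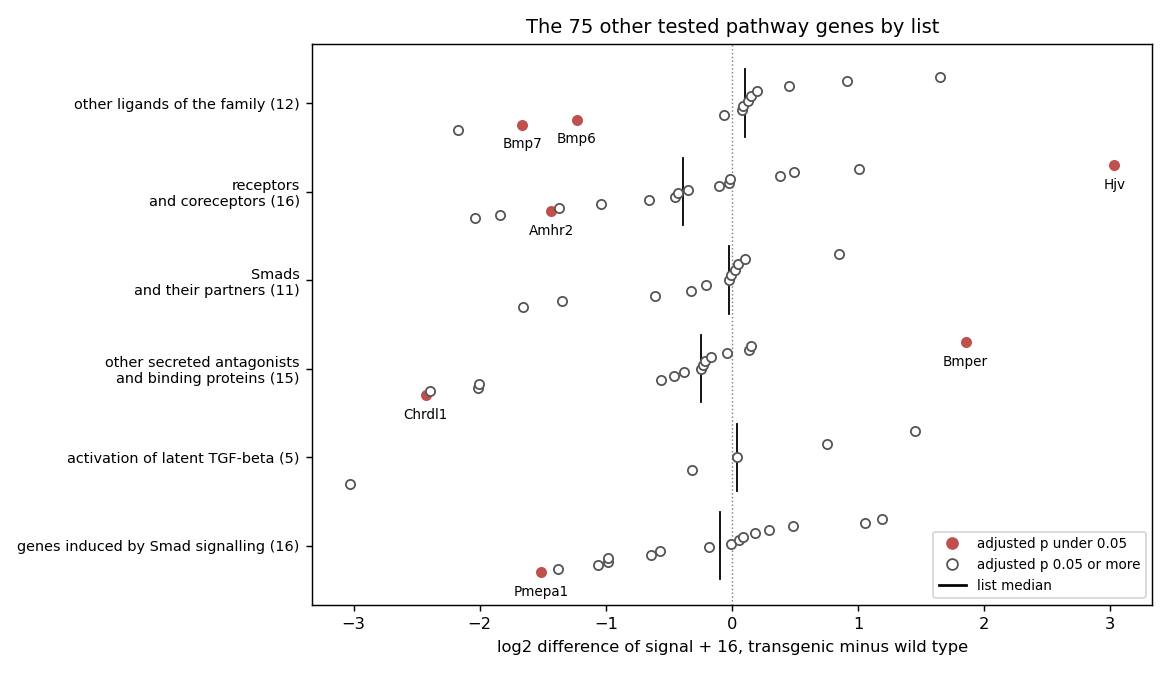
Log2 difference, transgenic minus wild type, of the 75 other tested pathway genes, grouped by list with the number of genes in brackets; filled points have an adjusted p under 0.05 and are named, and the vertical strokes are list medians. Hjv lies alone at 3.03 on the right, and 5 of the 7 filled points lie below 0.

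Among 12 other ligands Bmp6 and Bmp7 fell, 0 rose by limma and 10 did not pass. At an unadjusted p under 0.05, 2 of the 12 were higher and 2 lower (all genes 9.44% and 8.95%), and 2 rose and 3 fell without transgenic replicate 2. Bmp6, a ligand that controls iron balance through hepcidin in the liver, read 456, 376 and 423 in wild type and 168, 178 and 159 in transgenic fat. The values within each group were close, and the mean was 40.3% of wild type (log2 difference −1.23 ± 0.22 SE, limma adjusted p = 0.0373). Bmp7, known for promoting brown fat formation, read 53.4, 106 and 80.2 against 19.1, 6.2 and 16.9 (−1.66 ± 0.30 SE, limma adjusted p = 0.0392). The transgenic values of Bmp7 lie at or below about the offset of 16, so the size of its fall depends on that offset. With an offset of 1 the difference was −2.50 and the call was lost (limma adjusted p = 0.0699), as it was without a filter (limma adjusted p = 0.0657). Gdf3, a ligand of ALK7 named after its values were seen, read 26.7, 41.2 and 62.3 in wild type and 94.0, 69.7 and 120 in transgenic fat. It was higher in all 3 transgenic mice but did not pass (0.91 ± 0.31 SE, limma adjusted p = 0.204). It had 1.08 without transgenic replicate 2 (limma adjusted p = 0.0425).

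Of 16 other receptors and coreceptors 1 rose, 1 fell and 14 did not pass (all genes 2.23% and 1.54%). Without transgenic replicate 2, 2 rose and 3 fell (all genes 8.04% and 7.33%). Hjv, which encodes hemojuvelin, a coreceptor through which BMP6 acts on iron balance, rose more than any other of the 75 genes on the probe sets that stand for them. On 1454137_s_at, whose suffix marks probes shared by several transcripts, it read 64.3, 28.7 and 30 in wild type and 419, 427 and 450 in transgenic fat, and the log2 difference was 3.03 ± 0.29 (SE, limma adjusted p = 0.00425). The transgenic arrays were nearly equal, transgenic replicate 2 among them, and the call held whichever array was left out (adjusted p up to 0.0451). Its second probe set, 1429223_a_at, read 11.3, 3.5 and 14.4 against 185, 33.0 and 159 and did not pass (2.24 ± 0.55 SE, limma adjusted p = 0.0958), but did without transgenic replicate 2 (2.89, limma adjusted p = 0.000241).

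Amhr2, the receptor of anti-Müllerian hormone, has the probe set 1438967_x_at, whose suffix marks probes that can match other transcripts too. It read 219, 151 and 140 in wild type and 55.8, 44.4 and 55.2 in transgenic fat (−1.43 ± 0.25 SE, limma adjusted p = 0.0333). The receptors that work beside ALK7 did not pass. The type II activin receptor genes Acvr2a and Acvr2b had log2 differences of 0.49 ± 0.39 (SE, limma adjusted p = 0.57) and −1.04 ± 0.34 (SE, limma adjusted p = 0.198). Acvr1b, which encodes the other activin type I receptor, had −0.45 ± 0.30 (SE, limma adjusted p = 0.504). Without transgenic replicate 2 the values were 0.07, −0.72 and −0.63 (limma adjusted p = 0.864, 0.13 and 0.12). These 3 genes were named after their values were seen, for their role.

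Of 15 secreted antagonists and binding proteins tested, 1 rose, 1 fell and 13 did not pass (all genes 2.23% and 1.54%). Without transgenic replicate 2, 1 rose and 5 fell (all genes 8.04% and 7.33%). Chrdl1, a chordin-like protein that binds BMPs and blocks them, read 636, 960 and 813 in wild type and 94.5, 232 and 108 in transgenic fat on 1434201_at, 18% of the wild type mean. The log2 difference was −2.43 ± 0.37 (SE, limma adjusted p = 0.0226). Its 3 other tested probe sets were lower without overlap too, at −3.50, −2.63 and −1.97 (limma adjusted p = 0.024, 0.0914 and 0.0283), and at −2.85, −2.42 and −2.21 without transgenic replicate 2 (limma adjusted p = 4.4e-05, 0.0294 and 0.000317). Bmper, a secreted BMP-binding regulator, read 383, 349 and 594 in wild type and 1160, 2067 and 1684 in transgenic fat, 3.61-fold higher (1.85 ± 0.32 SE, limma adjusted p = 0.0341). Nog, the BMP antagonist noggin, named after its values were seen, read 66.6, 114 and 97.6 against 5.5, 1.7 and 32.5 and missed the threshold (−2.02 ± 0.42 SE, limma adjusted p = 0.0579). The difference was −1.73 (limma adjusted p = 0.0149) when transgenic replicate 2 was left out. Its transgenic signals lie near or below the offset of 16, and the difference ran from −3.45 with an offset of 1 (limma adjusted p = 0.13) to −1.03 with an offset of 64 (limma adjusted p = 0.0342).

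Among 11 Smads and their partners 0 rose and 0 fell by limma (1 and 2 at an unadjusted p under 0.05, all genes 9.44% and 8.95%), and 0 and 2 without transgenic replicate 2. Those 2 were Smad5, which carries BMP signals, and Smad6, which inhibits them, named after their values were seen. With all arrays they had −1.35 ± 0.38 (SE, limma adjusted p = 0.143) and −1.66 ± 0.49 (SE, limma adjusted p = 0.153), and without that array −0.93 and −1.09 (limma adjusted p = 0.00825 and 0.00706). Smad3, which carries activin and TGF-beta signals and was also named afterwards, was higher in all transgenic mice without passing (0.84 ± 0.30 SE, limma adjusted p = 0.227, and 0.62 with adjusted p = 0.0921 without transgenic replicate 2).

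Of 16 tested genes that Smad signalling can induce, 1 fell, 0 rose by limma and 15 did not pass. At an unadjusted p under 0.05, 2 of the 16 were higher and 4 lower (all genes 9.44% and 8.95%), and 2 rose and 3 fell without transgenic replicate 2. Pmepa1, a TGF-beta target that feeds back on Smad signalling, read 1689, 1371 and 1308 in wild type and 436, 394 and 715 in transgenic fat on 1422706_at (−1.51 ± 0.29 SE, limma adjusted p = 0.0481). Its 2 other tested probe sets were lower without overlap, at −2.36 and −1.66, but did not pass (limma adjusted p = 0.156 and 0.355), and without transgenic replicate 2 the first did (limma adjusted p = 0.00226 and 0.167). Id1, a BMP target named after its values were seen, had −1.38 ± 0.73 (SE, limma adjusted p = 0.413), and −0.47 (limma adjusted p = 0.2) when transgenic replicate 2 was left out. Id3, a related target named likewise, read 909.6, 1197 and 1218 against 469, 503 and 584 (−1.07 ± 0.24 SE, limma adjusted p = 0.0722), and had −1.05 (limma adjusted p = 0.00823) when the same array was left out. Besides Pmepa1 and Id3, the targets that were lower at an unadjusted p under 0.05 were Ccn2 and Fn1, also named afterwards. With all arrays these had −0.98 ± 0.27 and −0.57 ± 0.23 (SE, limma adjusted p = 0.13 and 0.2745). Leaving out transgenic replicate 2 gave −0.94 and −0.61 (limma adjusted p = 0.0273 and 0.103). The 2 targets that were higher at an unadjusted p under 0.05 were Tgif1 and Klf10, also named afterwards. With all arrays they had 1.19 ± 0.31 and 1.06 ± 0.31 (SE, limma adjusted p = 0.11 and 0.147). Without transgenic replicate 2 they had 1.42 and 0.78 (limma adjusted p = 0.00391 and 0.0227). Of 5 genes for the activation of latent TGF-beta 0 rose and 0 fell by limma (2 and 1 at an unadjusted p under 0.05, all genes 9.44% and 8.95%), and 1 rose and 1 fell without transgenic replicate 2. Thbs1, the thrombospondin-1 gene and again named afterwards, read 1452, 2099 and 1207 against 202, 52.2 and 459 (−3.02 ± 0.68 SE, limma adjusted p = 0.0736), and had −2.28 (limma adjusted p = 0.00205) without that array. The gene that rose without it was Itgb8 (1.12, limma adjusted p = 0.032), which had 1.45 ± 0.34 with all arrays (SE, limma adjusted p = 0.0815).

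**Figure D4:**
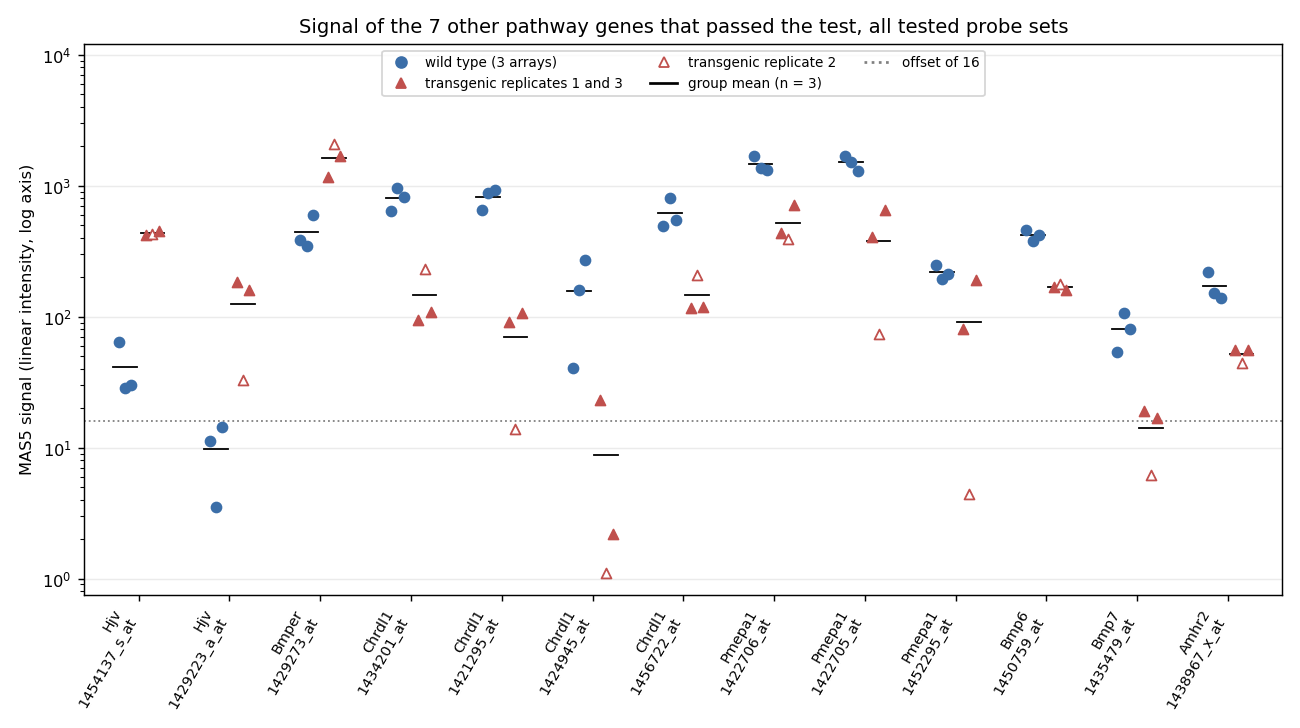
MAS5 signal (log axis) of the 7 other pathway genes that passed the test, on all their tested probe sets, with symbols as in the plot of member signals. The 3 transgenic arrays lie close together for Hjv 1454137_s_at (419 to 450) and Bmp6 (159 to 178), while transgenic replicate 2 lies well below the others on Pmepa1 1422705_at and 1452295_at.

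The calls of these genes other than Hjv were lost when any of several arrays was left out, as was that of Acvr1c. Calls over all probe sets changed too, from 452 higher and 350 lower with all arrays. They were 118 and 62, 91 and 50, and 119 and 68 without wild type replicate 1, 2 or 3. Without transgenic replicate 1, 2 or 3 they were 395 and 249, 1882 and 1683, and 162 and 164. The calls of Bmp6, Bmp7, Amhr2 and Chrdl1 were lost without wild type replicate 1, 2 or 3 or transgenic replicate 1 or 3, with adjusted p up to 0.222, 0.192, 0.162 and 0.143. Bmper lost its call without wild type replicate 1, 2 or 3 or transgenic replicate 3 (up to 0.199), and Pmepa1 without wild type replicate 1, 2 or 3 or transgenic replicate 1 (up to 0.244). Without transgenic replicate 2 all 7 passed: Hjv had 3.04, Bmper 1.67, Chrdl1 −2.79, Bmp7 −1.46, Amhr2 −1.35, Pmepa1 −1.35 and Bmp6 −1.27 (limma adjusted p = 5.77e-05 for Chrdl1 to 0.0113 for Bmp7). With array medians set equal Bmp6 (limma adjusted p = 0.18), Pmepa1 (0.081), Chrdl1 (0.0777), Amhr2 (0.0762) and Bmper (0.0523) lost their calls, and with quantile normalization Bmp6 did (limma adjusted p = 0.0874). Without a filter Amhr2 (limma adjusted p = 0.0638) and Pmepa1 (0.0581) lost theirs, and Pmepa1 also with an offset of 1 (limma adjusted p = 0.0549) and as the mean over its probe sets (−1.84, limma adjusted p = 0.131). The differences themselves kept their sign whichever array was left out.

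Markers of other cells in the pad also differed between the groups. For the counts given here, 2.23% of all tested genes rose and 1.54% fell. At an unadjusted limma p under 0.05 the shares were 9.44% and 8.95%, and without transgenic replicate 2 they were 8.04% and 7.33% by adjusted p. The summed signal of 5 mesothelial markers, genes of the layer that covers the fat pad, was 4288 to 5027 in wild type and 444 to 1638 in transgenic fat, and 2 of the 5 fell. That of 7 stromal progenitor markers was 8506 to 10028 against 4277 to 6564 (1 of 7 fell), although Cd55 was higher in every transgenic mouse (233% of wild type, limma adjusted p = 0.053) and Pdgfra overlapped between the groups. The sum of 6 endothelial markers was 7124 to 7958 against 1810 to 5484 (0 of 6 fell or rose by limma, 2 fell at an unadjusted p under 0.05), and Tek and Emcn overlapped. Transgenic replicate 2 gave the lowest mesothelial, stromal and endothelial sums. Transgenic replicates 1 and 3 had mesothelial sums of 1442 and 1638 and endothelial sums of 4296 and 5484. Without transgenic replicate 2, 5 of 5 mesothelial, 4 of 6 endothelial and 4 of 5 fat cell markers passed the test downward. Of the 7 stromal progenitor markers 4 then passed downward and 1 (Cd55) upward. For 9 macrophage markers the sum was 13377 to 15941 against 25566 to 34902 (0 of 9 fell or rose by limma, 3 rose at an unadjusted p under 0.05, and 6 passed the test upward without transgenic replicate 2). Smooth muscle and pericyte markers (6) summed to 8867 to 10549 against 5192 to 6577, with 1 that fell (Rgs5). Acta2, Myh11, Des and Cnn1 overlapped between the groups, and Des passed upward without transgenic replicate 2 (log2 difference 1.17, limma adjusted p = 0.0215). Rgs5 and Acta2 passed downward without that array (−1.07 and −0.65, limma adjusted p = 0.00177 and 0.0356). Skeletal muscle markers (5) summed to 1528 to 2502 against 309.9 to 671, with 1 of the 3 tested that fell and Ckm overlapping. Without transgenic replicate 2, 2 of the 3 fell. Brown fat cell markers (3) summed to 459.5 to 773 against 3996 to 5061, with 1 that rose. That was Cox8b, which made up most of the sum (324.5 to 690.2 in wild type and 3571 to 4616 in transgenic fat). Cidea overlapped between the groups and did not pass (limma adjusted p = 0.734), but passed upward without transgenic replicate 2 (2.05, limma adjusted p = 0.000691). Ucp1, the defining brown fat gene, stayed at 2.5 to 7.1 on all arrays. For lymphocyte markers (4) the sums were 241 to 246 against 346 to 480. Of these 4, 0 fell or rose by limma, and Cd79a and Ms4a1 overlapped between the groups. Cd3e passed upward without transgenic replicate 2 (limma adjusted p = 0.0286). Epididymis and testis markers (7) summed to 106 to 177 against 145 to 187, with Lcn5, Adam7 and Tnp2 (3 of the 7) below 16 on all arrays. No marker was listed at 0. Acvr1c, Bmp2, Bmp4, Chrdl1, Amhr2, Bmp6 and Bmp7 were lower, as were the fat cell, mesothelial, stromal, endothelial, smooth muscle and skeletal muscle sums, and the part of these sums in the differences was not tested.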

How the data were processed

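Total RNA of epididymal fat from 3 wild type and 3 transgenic mice was hybridised to 1 array per mouse. The authors deposited 1 linear intensity per probe set and array. The submitters' processing notes name MAS5 as the tool. No source used here states its version, scaling target or detection calls, so dim signals carry no bound. There were 0 columns of other samples.

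Of 45101 probe sets 34958 have 1 gene in the platform annotation, 932 several and 9211 none. Some listed pathway and marker genes are not named there and were not analysed here. With R 4.3.3 and limma 3.58.1, log2(signal + 16) was tested without further normalization, which understates changes of dim genes. The 64 control probe sets and then the 40% with the lowest mean over 6 arrays were left out, leaving 27023. Groups were compared with lmFit and eBayes (trend) in a two-sided test, with Benjamini-Hochberg adjustment over all tested probe sets (threshold 0.05). Every adjusted p is from limma. For each of 13112 genes the brightest tested probe set (by mean) stood for the gene. The code was tested on simulated data. Each array is 1 animal, and the p-values rest on that spread.

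The members and lists were chosen with earlier results of these data known. The rule for named genes takes all member probe sets, up to 4 genes per pathway list past the threshold, and the 3 genes most correlated with Acvr1c and with Inhbb; others are said to be named afterwards. Promoter windows were read with Python 3.11.15. The alternatives changed the offset (1 or 64), the filter (none or 60%), the scaling (quantile or equal array medians) and the fit (no trend, robust, array weights), added blocks for the replicate number and for the Pcx class, left out each array, left out transgenic replicate 2 under quantile normalization, and took the mean over the probe sets of a gene.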

Additional observations from a re-analysis of the deposited data

How the results depend on the processing

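The fall of Acvr1c kept its direction on all 3 probe sets under every alternative run, from −3.03 to −2.28 on 1438309_at and at −2.10 as the mean over its probe sets, and Hjv stayed past the threshold in all of them (2.26 to 3.47). The number of member genes that passed was 1, and 0 with equal array medians or with the replicate block. It was 3 with transgenic replicate 2 left out under quantile normalization, and 0 to 3 with 1 array left out. With equal array medians Acvr1c had −2.34 (limma adjusted p = 0.0763), and with the replicate block −2.57 (limma adjusted p = 0.056). Of the other pathway genes 7 passed, and 4 did without a filter, 22 with array weights, 2 with the replicate block, 2 with the Pcx class (3′ over 5′ ratio of the Pcx control under 10 or above) as a block, and 33 with transgenic replicate 2 left out under quantile normalization. With equal array medians 5 passed, and of the 7 only Hjv and Bmp7 were among them. With 1 array left out the number was 1 to 25. Replicate numbers share no label of a litter. Same-numbered arrays did not deviate together (r = −0.374, 0.0892 and −0.0507), so the pairing by number is not used. The highest r across the groups was 0.449, for wild type replicate 3 with transgenic replicate 1. These are the arrays of the low Pcx class (ratios 3.06 and 3.1), and the part of this class in the differences was not tested. Over all 27023 probe sets the replicate block took the calls from 452 higher and 350 lower to 193 and 148. Array weights gave 1911 and 1448, and quantile normalization 656 and 514.

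Among the genes named, signs turned for member probe sets that did not pass. Equal array medians gave 0.13 for Inhbb 1426858_at, 0.12 for Fst 1421365_at and 0.0385 for Tgfb2 1450922_a_at, and array weights gave 0.24 for Inhbb 1426859_at and 0.51 for Fst 1421365_at. With transgenic replicate 2 left out under quantile normalization, Inhbb 1426859_at had 0.28, Fst 1421365_at 0.44 and Tgfb1 1420653_at 0.28. With 1 array left out the ranges were −0.37 to 0.17 and −0.60 to 0.28 for the Inhbb probe sets, −0.50 to 0.48 for Fst 1421365_at, and −2.51 to 0.30 and −0.0534 to 0.56 for Tgfb1 1420653_at and 1445360_at. The median log2 difference of all probe sets was −0.09, and 0.13 with equal array medians. The cause of these changes was not tested. Signals near the offset of 16 (Inhba, Tgfb2, Bmp7, Nog) limit what can be said of small changes, and 3 arrays per group limit the rest.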
